A study of Drosophila melanogaster with 20 samples.

Results

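EcR, the nuclear receptor for the moulting hormone ecdysone, was mapped at 8 genes of cell death and autophagy in 3 larval tissues of the fruit fly Drosophila melanogaster: hid, rpr, Diap1, Dark, Atg1, Atg5, Atg9 and Atg13. Every site with its midpoint in the span of one of these genes, or within 2000 bp of it, was taken from the authors' tables, together with every peak summit in the same intervals. This gave 14 of the 3463 sites and 28 summits in 6 peak lists. Of the 8 genes, 7 had at least 1 site, and rpr had none.

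The tissues, wing, leg and salivary gland, came from female larvae at the wandering stage (6 hours ahead of puparium formation). Wing and leg are then imaginal discs, which go on to form the adult appendages. All anti-Flag libraries came from 1 genotype, w; EcR-GFSTF / Df(2R)BSC313, in which the EcR gene carries a multi-part tag with a Flag epitope and the homologous chromosome carries a deficiency. CUT&RUN cuts DNA around a protein with a nuclease that an antibody brings to it, and the DNA set free (supernatant) and the DNA left behind (pellet) were sequenced separately. There were 12 anti-Flag libraries, 2 replicates for each tissue and fraction, and 8 IgG libraries, 6 from wild-type wings (+ / +; + / + ; + / +) and 2 from glands of the tagged genotype. By their labels the wing IgG libraries differ in condition, without replicates within a condition and fraction.

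As background, ecdysone both shapes the discs and starts the destruction of larval tissues. The larval salivary gland dies after pupariation, with caspase activation and autophagy together. In the death pathway Hid and Rpr bind the inhibitor Diap1, which otherwise holds caspases in check, and Dark, the fly relative of mammalian Apaf-1, assembles the apoptosome that activates the caspase Dronc. In autophagy the kinase Atg1 and its partner Atg13 start the process, Atg9 brings membrane, and Atg5 is joined to Atg12 in the conjugate that helps attach Atg8 to the growing membrane. The glands here were taken before that death, and the data hold binding only, so no level of RNA or protein is reported.

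Each peak list was made from merged replicates and has no replicate error. Peak names in all 6 lists, glands included, mention wing IgG libraries that had been merged. The depth per library is unknown. Whether the 2 replicates of a tissue were dissected separately is not given in the labels, and the p-values then cover only the spread among libraries, possibly a technical one. The mean normalised read count of a site had a median of 9.59 over all sites in the authors' deposited tables, and the 14 member sites lay between 2.69 and 43.6, with 9 of them at or above that median. A site entered the tables because at least 1 list held a peak there. A site with peaks in the gland alone was therefore likely to be higher in the gland from the outset, and such directions describe the sites without being independent evidence. Both disc comparisons use the same gland libraries, so their values are given side by side and not as support for each other.

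EcR sites at these genes were not all of one kind. In the authors' deposited table for wing and gland, 7 of the 14 member sites were higher in the gland and 2 in the wing at an adjusted p under 0.05. For leg and gland, the authors' deposited table gave 6 higher in the gland and 2 in the leg. Over all sites, 26.4% were higher in the gland and 28.7% in the wing in the first of these comparisons, and 22.7% and 29.6% in the gland and the leg in the second. These shares include sites far from any gene, while the 14 lie near genes by the rule. In the supernatant, 1174 gland peaks gave summits at 1010 coding genes, 1442 wing peaks at 736 and 1596 leg peaks at 845. Gland summits thus reached more coding genes from fewer peaks. A share or median over sites near genes alone was not computed, so no excess particular to these genes is claimed. The median log2 fold change of the 14 sites was -0.86 for wing over gland, beside 0.46 over all sites, and -0.41 for leg over gland, beside 0.63, both from the authors' deposited tables. The gland side held both sites of Dark, the single sites of Atg5 and Atg13 and 2 sites of Diap1 in both comparisons, and a weak site of Atg1 against the wing. The disc side held 1 site beside hid in both, a further site of Diap1 against the wing, and a further site of Atg1 against the leg.

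**Figure D1:**
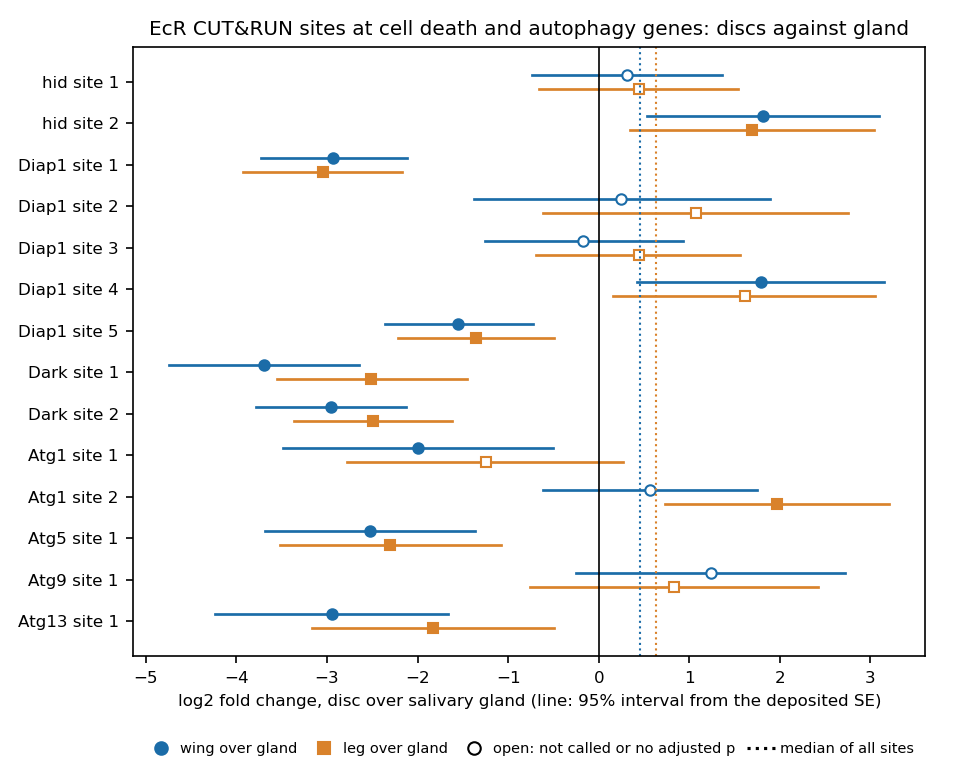
Log2 fold change (x axis) of wing over salivary gland (blue circles) and leg over salivary gland (orange squares) at the 14 sites, with 95% intervals from the deposited standard errors; filled symbols passed the authors' adjusted p of 0.05, and dotted lines mark the medians of all sites, 0.46 and 0.63. The sites of Dark, Atg5 and Atg13 and sites 1 and 5 of Diap1 lie to the left of 0 in both comparisons, and hid site 2 to the right.

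The calls on the disc side depend on where 0 is set, though their signs did not change. The median over the chromosome arms was 0.42 for wing over gland and 0.63 for leg over gland, and with values centred on it the 4 calls on the disc side fell away, at adjusted p of 0.0666 to 0.209. All calls on the gland side held. Over all sites, centring turned 993 calls on the wing side and 914 on the gland side into 581 and 1063, and 1024 on the leg side and 786 on the gland side into 424 and 1043. The disc-side calls at the 14 member sites are therefore calls on the authors' scale only. More of the peak lists came from discs than from the gland, so the median need not be a true 0. Whether centring corrects too far was not tested.

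The summits showed the same sites from the side of the peak lists. In the supernatant, a summit was found at 2 of the 8 genes in the wing list, 4 in the leg list and 5 in the gland list. Of all coding genes, 5.28% had a summit in the span or within 2000 bp in the wing list, 6.06% in the leg list and 7.24% in the gland list. In the pellet, the wing list gave 4 genes, the leg list 2 and the gland list 4, beside 5.12%, 3.28% and 6.31% of coding genes. Most of these genes are long, which raises the chance of holding a summit: 7 spans ran from 2833 to 20688 bp against a median of 2160 bp for coding genes, and rpr spans 901 bp. The 8 genes were also chosen with earlier results of these data known, which can by itself raise their counts. No excess over the shares of coding genes is therefore claimed. Of the 14 sites, 7 had summits in gland lists alone, 3 in the leg alone and 4 in leg and wing. None had summits in both a disc list and a gland list, or in the wing alone.

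**Figure D2:**
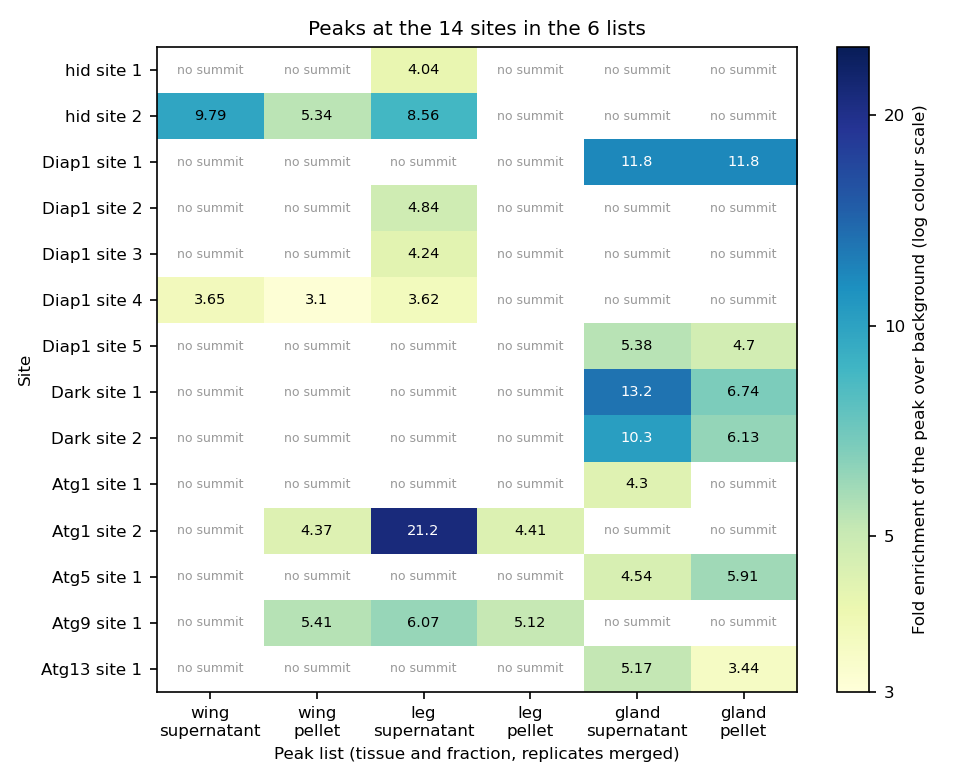
Fold enrichment of each peak over background, as the authors' peak caller gave it (numbers and log colour scale), for the 14 sites (rows) in the 6 lists of tissue and fraction (columns). The highest value is 21.2, at Atg1 site 2 in the leg supernatant, and rows with gland values have none in a disc column; values rank peaks within a list only.

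hid codes for a death inducer that frees caspases from Diap1. Its span lies on 3L from 18167745 to 18185641, and it had 2 sites. Site 2, from 18186071 to 18186380, lies 584 bp beyond the upper end of the span, with no other gene within 2000 bp. Its summit had a fold enrichment of 9.79 in the wing supernatant list, 8.56 in the leg supernatant list and 5.34 in the wing pellet list. No gland list and no leg pellet list held a summit there. The site was 3.52-fold higher in the wing than the gland (log2 fold change 1.81, SE 0.66, adjusted p = 0.0159) and 3.23-fold higher in the leg (1.69, SE 0.69, adjusted p = 0.0349) in the authors' deposited tables. Site 1, from 18172253 to 18172361, lies inside the span, 4562 bp from its lower end. It was a weak peak of the leg supernatant list only, with a fold enrichment of 4.04, above only 11.3% of that list, and did not pass against the gland for the wing (0.31, SE 0.54) or the leg (0.44, SE 0.56) in the authors' deposited tables.

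rpr codes for a second death inducer, known from other work as a gene that ecdysone switches on in the dying gland. Its span, 3L from 18397535 to 18398435, had no site and no summit of any of the 6 lists within 2000 bp. The nearest site lay 3877 bp beyond the upper end, from 18402166 to 18402459, outside the reach of any gene. It was occupied in all 3 tissues, with a fold enrichment of 12.9 in the supernatant list of the wing, 9.28 in that of the leg and 8.61 in that of the gland and 4.93 in the wing pellet list. In the authors' deposited tables it did not pass for wing over gland (0.41, SE 0.36, adjusted p = 0.332) or for leg over gland (-0.33, SE 0.39, adjusted p = 0.464). It therefore missed the interval by distance, and rpr has no site within 2000 bp but would have 1 with a margin of 5000 bp. A further 2 genes had a site just outside: one 2025 bp beyond Atg5 and within 2000 bp of CG1677 and Dok, which the authors' deposited table gives as higher in the leg than the gland (1.25, SE 0.48, adjusted p = 0.0223), and one 3219 bp beyond Atg13, near stck, higher there in the gland than in the wing (-2.21, SE 0.79, adjusted p = 0.0121, from the authors' deposited table).

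The stretch between hid and rpr was described because the nearest sites to both genes lie in or beside it, a choice made after the values were seen. It runs over 211893 bp and also holds grim, another death inducer, which had no site within 2000 bp. It held 22 sites, hid site 2 included, and the one nearest to rpr on this side was 118030 bp away. Wing over gland values ran from 0.37 to 2.78 with a median of 1.29, and leg over gland values from 0.37 to 2.62 with a median of 1.20, beside 0.46 and 0.63 over all sites, in the authors' deposited tables. In them 11 of the 22 sites were higher in the wing, beside 28.7% of all sites, 9 were higher in the leg, beside 29.6%, and none was higher in the gland. Since the stretch was picked on these values, nothing is read from those counts. Centring kept 7 of the 11 wing calls and 4 of the 9 leg calls. The strongest, with a mean of 96.5, lay 58231 bp beyond hid near the non-coding gene lncRNA:CR45936 and was higher in the wing (1.69, SE 0.25, adjusted p = 1.57e-10) and in the leg (1.15, SE 0.26, adjusted p = 9.67e-05) in the authors' deposited tables. After centring its wing call held (1.27, adjusted p = 1.57e-06) and its leg call did not (0.52, adjusted p = 0.0957). Between wing and leg the authors' deposited table called none of the 22 sites. Centring gave 2 calls higher in the wing there, this site among them (0.73, adjusted p = 0.0349), and nothing is read from them either. Summits in this stretch numbered 16 in the supernatant list of the wing, 18 in that of the leg and 2 in that of the gland, and the pellet lists held 16, 4 and 1 in the same order. To which of the genes these sites belong was not tested.

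**Figure D3:**
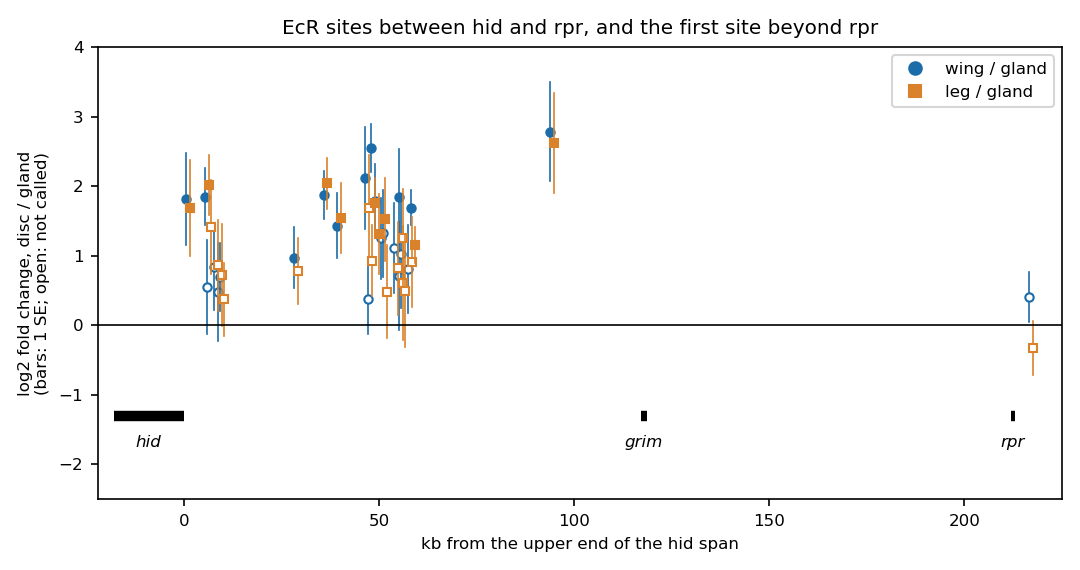
Log2 fold change of wing over gland (blue circles) and leg over gland (orange squares, drawn 1 kb to the right) for the 22 sites between hid and rpr and the first site beyond rpr, against the distance from the upper end of hid in kb; bars are 1 standard error, filled symbols passed an adjusted p of 0.05 and black bars mark the gene spans. All 22 sites lie above 0 in both comparisons and no site lies in the last 118030 bp before rpr.

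Diap1 codes for the main caspase inhibitor of the fly, and its gene had the most sites of the 8, with directions that differed along the gene. Its span runs on 3L from 16038410 to 16051034. Site 1, from 16038006 to 16038302, lies 256 bp outside the lower end and 927 bp from CG5895, so it is within reach of both genes. The gland supernatant and gland pellet lists both gave its peak a fold enrichment of 11.8, above 80.1% and 81.5% of the peaks of those lists, and no disc list held it. In the authors' deposited tables it was 7.61-fold higher in the gland than in the wing (-2.93, SE 0.41, adjusted p = 3.71e-11) and 8.26-fold higher than in the leg (-3.05, SE 0.45, adjusted p = 7.52e-10). Site 5, from 16045728 to 16045884, inside the span, was a weaker gland site with fold enrichments of 5.38 and 4.70, and it was 2.92-fold higher in the gland than in the wing (-1.55, SE 0.42, adjusted p = 0.000816) and 2.56-fold higher than in the leg (-1.36, SE 0.44, adjusted p = 0.00648) in the authors' deposited tables.

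The other three sites of Diap1 lie inside the span, near the antisense gene asRNA:CR45889, and had summits in disc lists only. Site 4, from 16043466 to 16043742 and 2202 bp from site 5, had fold enrichments of 3.65 in the wing supernatant, 3.10 in the wing pellet and 3.62 in the leg supernatant list, all in the lowest 20% of their lists. The leg summit lay at 16043475 and the wing summits at 16043672 (supernatant) and 16043634 (pellet), so the site joins weak peaks that overlap only in part. Site 4 was 3.45-fold higher in the wing than the gland (1.79, SE 0.70, adjusted p = 0.0241) in the authors' deposited table. The leg value was close to it (1.61, SE 0.74) and missed the threshold at an adjusted p of 0.057 in the authors' deposited table. Sites 4 and 5, neighbours in 1 gene, thus had opposite calls in wing against gland. Sites 2 and 3 were weak leg supernatant peaks, at 4.84 and 4.24, and did not pass in any comparison that gave them an adjusted p, with wing over gland values of 0.25 (SE 0.83) and -0.17 (SE 0.56) in the authors' deposited table.

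**Figure D4:**
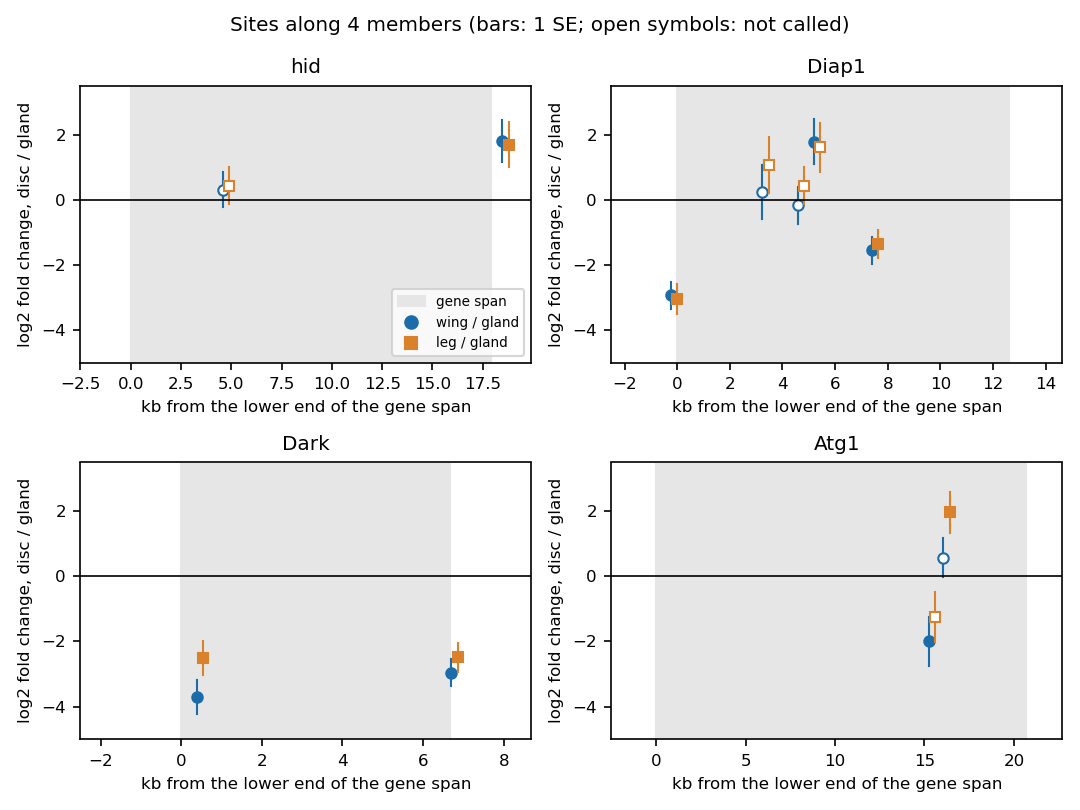
Log2 fold change of wing over gland (blue circles) and leg over gland (orange squares, drawn slightly to the right) against the position of each site in kb from the lower end of the gene span (grey) for hid, Diap1, Dark and Atg1; bars are 1 standard error and filled symbols passed an adjusted p of 0.05. Both sites of Dark lie below 0, while Diap1 and Atg1 have sites on either side.

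Dark codes for the scaffold of the apoptosome, and EcR occupied both ends of its span in the gland. The span lies on 2R from 17020027 to 17026703. Site 1, from 17020339 to 17020479, lies inside it, 382 bp from the lower end, and 887 bp from Paip1. Its fold enrichment was 13.2 in the gland supernatant list, above 84.7% of its peaks, and 6.74 in the gland pellet list. The site had the largest gland excess of the 14 over the wing, 13.0-fold (-3.70, SE 0.53, adjusted p = 2.12e-10), and was 5.68-fold higher in the gland than in the leg (-2.51, SE 0.53, adjusted p = 3.09e-05) in the authors' deposited tables. Only 1.59% of all sites had a lower wing over gland value in the authors' deposited table. Site 2, from 17026611 to 17026833, has its midpoint 19 bp beyond the upper end, inside the antisense gene asRNA:CR44390 and 468 bp from RhoGEF2, a regulator of cell shape, so its gene is uncertain. Its fold enrichments were 10.3 in the supernatant and 6.13 in the pellet of the gland, with summits 4 bp apart. It was 7.76-fold higher in the gland than in the wing (-2.96, SE 0.42, adjusted p = 7.9e-11) and 5.60-fold higher than in the leg (-2.49, SE 0.44, adjusted p = 4.21e-07) in the authors' deposited tables.

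Atg1, the kinase gene that starts autophagy, carried 2 sites 795 bp apart, one with a gland summit and one with disc summits. Its span lies on 3L from 12784429 to 12805116. Site 2, from 12800341 to 12800586, inside the span, had the highest fold enrichment of any member peak, 21.2 in the leg supernatant list, above 90.0% of that list. The leg pellet and wing pellet lists held the same site at 4.41 and 4.37, with summits at most 5 bp from that of the leg supernatant, but the wing supernatant list did not hold it. It was 3.91-fold higher in the leg than in the gland (1.97, SE 0.63, adjusted p = 0.0048), while wing over gland gave 0.57 (SE 0.60, adjusted p = 0.392) in the authors' deposited tables. Site 1, from 12799628 to 12799709, was a weak gland supernatant peak at 4.30 with a mean of 3.07, above only 3.84% of sites. It was 4.01-fold higher in the gland than in the wing (95% interval of the log2 fold change -3.49 to -0.51, adjusted p = 0.0183), and the leg value of -1.25 (SE 0.78) did not pass (adjusted p = 0.156) in the authors' deposited tables.

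Atg13 codes for the partner of Atg1 and had 1 site, 3R from 8353482 to 8353749, 798 bp beyond the upper end of its span (8349815 to 8352817). No other gene lies within 2000 bp of it. The peak was in the gland lists alone, at 5.17 in the supernatant and 3.44 in the pellet, the latter above only 2.03% of its list. In the authors' deposited tables it was 7.73-fold higher in the gland than in the wing (-2.95, SE 0.66, adjusted p = 3.67e-05) and 3.56-fold higher than in the leg (-1.83, SE 0.68, adjusted p = 0.0185). The gland lists thus rank this peak low, although the difference from the wing is among the larger ones of the 14.

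Atg5 codes for the part of the conjugation machinery that is joined to Atg12. Its span, X from 7314622 to 7323770, had 1 site inside, from 7316299 to 7316500, which also lies within the larger spans of CG1677 and lncRNA:CR44357. The gland supernatant list gave it a fold enrichment of 4.54 and the gland pellet list 5.91, with summits 90 bp apart, the widest gap among the 10 pairs of supernatant and pellet summits at member sites (4 to 90 bp). It was 5.76-fold higher in the gland than in the wing (-2.53, SE 0.59, adjusted p = 9.63e-05) and 4.92-fold higher than in the leg (-2.30, SE 0.62, adjusted p = 0.00113) in the authors' deposited tables.

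Atg9 codes for the membrane protein that supplies lipid to the forming autophagosome. Its span lies on 2R from 16294400 to 16297232, and its site, from 16298224 to 16298428, lies 1094 bp beyond the upper end, inside the non-coding gene lncRNA:CR45232. Its peaks were 6.07 in the leg supernatant, 5.12 in the leg pellet and 5.41 in the wing pellet list, and no gland list held it. With a mean of 43.6 it was the highest of the 14, above 88.9% of all sites, but it is 1 of 4 sites without a p-value in the authors' deposited tables and could not be called. The reason is not given, so this mean is not read as the strength of the site. Despite the mean, its SE was 0.76 for wing over gland and 0.81 for leg over gland, beside medians of 0.596 and 0.628 over the 14 sites. Its wing over gland value of 1.24 had a 95% interval from -0.25 to 2.72, and its leg over gland value of 0.83 one from -0.76 to 2.42 in the authors' deposited tables. The 3 sites most like it over the 3 log2 fold changes lay in CG30089, in Np and 1817 bp from nkd, at Euclidean distances of 0.039, 0.0764 and 0.104 on the log2 scale. These distances are far below the standard error of the Atg9 values, 0.76 for wing over gland in the authors' deposited table, and 104 of 1723 sites lay within 0.5.

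Between wing and leg, 0 member sites passed in the authors' deposited table from DESeq2, which gives 11 of the 14 an adjusted p. At an unadjusted p under 0.05 there were 2, both higher in the leg. Calls were rare over all sites as well, 0.571% higher in the wing and 0.902% in the leg. The larger of the 2 was Atg1 site 2 (-1.40, 95% interval -2.51 to -0.30, adjusted p = 0.182), a 2.64-fold difference, and the other was Dark site 1 (-1.19, -2.30 to -0.07, adjusted p = 0.352) in the authors' deposited table. Atg13 had -1.12 (-2.46 to 0.23), and hid site 2 had 0.12 (-1.02 to 1.27), an interval that spans a 2-fold difference in either direction, in the authors' deposited table. For Diap1 site 1 the interval of 0.12 ran from -0.78 to 1.02, in the authors' deposited table, and so reaches a 2-fold excess in the wing. So Atg1 site 2, which passed against the gland for the leg but not for the wing, was not shown to differ between the discs.

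**Figure D5:**
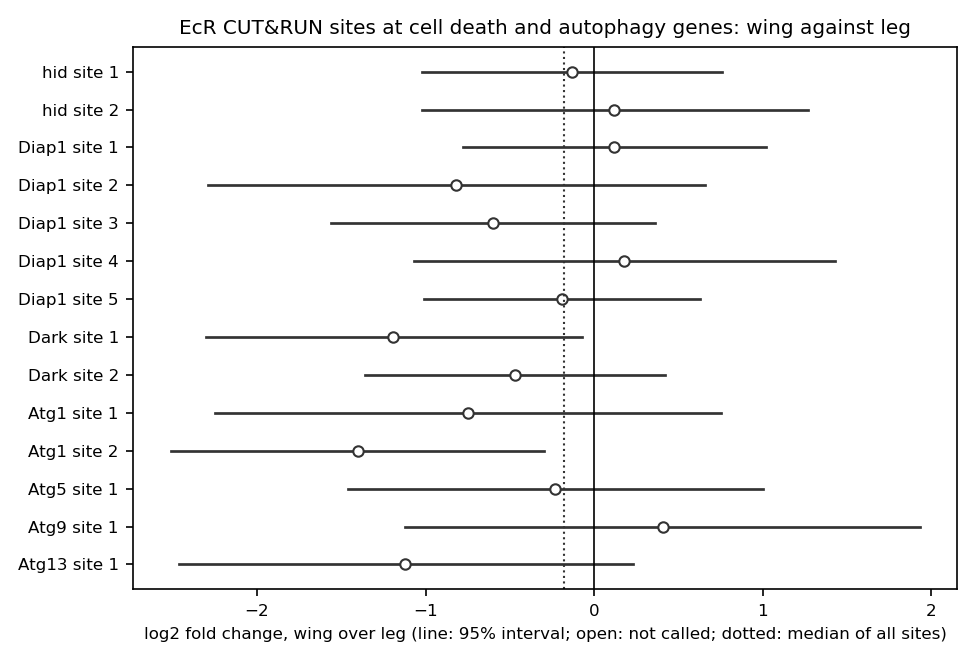
Log2 fold change of wing over leg (x axis) with 95% intervals at the 14 sites; open symbols did not pass the authors' adjusted p of 0.05 or had none, and the dotted line is the median of all sites, -0.18. The values run from -1.40 at Atg1 site 2 to 0.41 at Atg9, and only the intervals of Atg1 site 2 and Dark site 1 leave out 0.

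Among 49 other genes of these pathways, 8 had a site, 10 sites in all. By the authors' deposited tables, of these 10, 6 were higher in the gland against the wing and 6 against the leg, beside 26.4% and 22.7% of all sites, and none was higher in a disc. Their median was -2.36 for wing over gland and -1.96 for leg over gland in the authors' deposited tables, beside 0.46 and 0.63 over all sites. These 10 sites lie inside gene spans, so the limit on all-site shares given above holds here too. The lists were chosen with earlier results of these data known, so these sites are no independent support. Of 23 other autophagy genes, 5 had sites, and 5 of these 6 sites were higher in the gland in both comparisons. They lay in Uvrag, a partner of the Vps34 lipid kinase (-3.49, SE 0.57, against the wing), Atg18b, which binds the lipid that kinase makes (-2.32, SE 0.52), Atg7, the activating enzyme of the conjugation system (-2.39, SE 0.50), and bchs, which helps clear protein aggregates (-2.81, SE 0.50 and -3.20, SE 0.64), in the authors' deposited table. Uvrag, Atg18b, Atg7 and bchs had summits in gland lists only. These 5 sites thus entered the tables through the gland, and their direction is not independent evidence. The share of all sites higher in the gland in both comparisons was not computed. All 5 sites also lie within 2000 bp of another gene, among them Sec6 at Atg7 and CG14000 at bchs. The sixth, in Atg16, a partner of Atg5, did not pass in the authors' deposited table, with 0.91 (SE 0.58) for wing over gland.

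Of 26 other cell death genes, 3 had sites. The adaptor gene ced-6, which acts when dying cells are engulfed, had a site of mean 48.9 that was higher in the gland than in the wing (-3.13, SE 0.32) and the leg (-2.79, SE 0.34) in the authors' deposited tables. This site also lies within 2000 bp of lncRNA:CR45321, and ced-6 had summits in gland lists only. puc, the phosphatase gene that limits JNK signalling, had 2 sites (-0.68, SE 0.34 and 0.56, SE 0.56 for wing over gland) and egr, the TNF ligand gene, 1 site (1.53, SE 1.00) in the authors' deposited table, and none of these passed. The caspase genes Dronc, Drice, Dcp-1, Dredd, Strica, Damm and Decay, the Bcl-2 relatives Buffy and Debcl and the inducers grim and skl had no site in reach. Atg8a, Atg8b, Atg6, Atg17 and Atg101 had none either.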

How the data were processed

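Per the submitters' processing notes, the authors used DESeq2, R 3.5.2, MACS2 2.1.2, Bowtie2 2.3.4.1, bedtools 2.26, Picard 2.2.4 and SAMtools 1.9 on dm6; order and settings are not given in the sources used here, nor which libraries and fractions entered each fit. The authors deposited, per peak, the q-value as its −log10, the fold enrichment (a ratio on a linear scale) and the summit's offset in bp. For each site the authors deposited a mean normalised read signal, a log2 fold change with its standard error, a Wald score (not used here), a p-value and an adjusted p-value. Counts per library were not among these values, so no model was refitted: calls are the authors' adjusted p under 0.05 over all sites of a table.

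Starts in the tables equalled the 0-based peak starts at all 3463 sites and were raised to 1-based. Spans of genes were read from a RefSeq table on the same assembly (Release 6 plus ISO1 MT), with coordinates for 13951 coding genes but without strand, exon or intron, so a site is given as inside a span or at a distance from its lower or upper end. All names of the gene lists were found in it. Intervals of 95% are the value ± the normal quantile times the SE. Values centred on the median of arms 2L, 2R, 3L, 3R and X were tested by a normal p with Benjamini-Hochberg adjustment across all sites. The code was checked on simulated data in which few sites changed. That check cannot show that the median is a true 0 in these data, where many sites were called. Named genes were the members, pathway genes with a called site or supernatant summit, and neighbours within 2000 bp; genes without a site are named only to say so. The members and lists were chosen with earlier results of these data known. IgG libraries were not analysed here. Python 3.11.15, pandas 2.3.3, SciPy 1.17.1 and matplotlib 3.10.9 were used.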

Additional observations from a re-analysis of the deposited data

How the results depend on the processing

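No paired analysis was possible because the tables hold no values per library, and leaving out single replicates could not be run for the same reason. Of the 15 counts that moved by over 1.5 times, 7 did so without a margin, where 9 of the 14 sites remain by construction: wing against gland gave 1 site on the wing side and 4 on the gland side, leg against gland 1 on the leg side and 3 on the gland side, and genes with a summit 1 in the wing supernatant, 2 in the wing pellet and 1 in the leg pellet. With a margin of 5000 bp the wing supernatant count was 4. Keeping only peaks whose −log10 q was at least 10, genes with a summit numbered 1 in the wing supernatant, 2 in the gland supernatant and 1 in the gland pellet. The leg supernatant then had 3, the leg pellet 2 and the wing pellet 3, so among these stronger peaks the gland did not have the most genes in either fraction. At an adjusted p under 0.01, 0 sites stayed higher in the wing and 1 in the leg. Centring on the arms' median left 0 sites on the wing side and 0 on the leg side; it took the calls of hid site 2 (1.40, adjusted p = 0.0666, and 1.06, adjusted p = 0.209), Diap1 site 4 (1.37, adjusted p = 0.0937) and Atg1 site 2 (1.34, adjusted p = 0.0737), and added Atg1 site 1 on the gland side against the leg (-1.88, adjusted p = 0.0385). The other 57 of 72 counts, among them those by overlap, with an adjusted p under 0.1 and at sites at or above the median mean, kept within 1.5 times. Low means limit the weak sites most: at Diap1 site 2 and Atg1 site 1 the authors' deposited wing and leg table gives no adjusted p.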
